A study of Mus musculus with 14 samples.

Results

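The interleukin 1 (IL-1) family and inflammasome set held 10 genes, taken by symbol from a count table of 25212 genes: *Il1a*, *Il1b*, *Il1rn*, *Il1r1*, *Il1r2*, *Il1rap*, *Il18*, *Il33*, *Nlrp3* and *Casp1*. They were measured by RNA-seq in the livers of 14 male C57BL/6 mice made obese on a high fat diet (HFD), which all groups shared. The diet-induced obese (DIO) group had no surgery (n = 5), the GB-IL group had the gallbladder joined to the ileum with the common bile duct tied off (n = 4), and the RYGB group had a Roux-en-Y gastric bypass (n = 5). Livers were taken at 8 weeks, 1 library per liver. The DIO mice had no sham operation, so the effect of an operation as such and that of the rerouted bile or gut cannot be told apart here.

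IL-1α and IL-1β, encoded by *Il1a* and *Il1b*, are ligands of 1 receptor, IL-1R1, which signals once it has recruited the accessory protein encoded by *Il1rap*. The antagonist encoded by *Il1rn* occupies the receptor without signalling, and *Il1r2* encodes a decoy receptor that binds ligand but lacks the signalling domain. IL-1β and IL-18 are made as inactive precursors that caspase-1 (*Casp1*) cuts, and caspase-1 is activated on inflammasomes such as the one built by NLRP3. In the liver these cytokines come mainly from macrophages and other myeloid cells, IL-33 is a nuclear alarmin of stromal and other tissue cells, and hepatocytes respond to IL-1 with acute phase proteins.

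RefSeq promoter sequences (GRCm38.p6) were matched for all 10 genes, in 15 windows of the 250 bases before an annotated start. Those of *Il1a* and *Il1b*, the ligand pair that lies side by side on chromosome 2, and of *Il1rn* and *Il1r2*, the antagonist and the decoy, are shown since these 4 genes carry the contrast described below. Each runs 5′ to 3′ on the gene's own strand and ends at the base before the start. Capitals mark matches, on either strand, to the TATA box (TATAAA), to AP-1 (TGANTCA, whose 2 strands match at the same place) and to the PU.1 core (GAGGAA).
Il1b, chr2:129371140-129371389, minus strand: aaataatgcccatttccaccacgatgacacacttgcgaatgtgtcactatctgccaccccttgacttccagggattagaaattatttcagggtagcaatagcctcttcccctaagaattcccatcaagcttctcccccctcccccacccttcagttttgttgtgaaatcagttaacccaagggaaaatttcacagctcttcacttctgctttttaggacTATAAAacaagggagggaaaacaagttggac
Il1rn, chr2:24336610-24336859, plus strand: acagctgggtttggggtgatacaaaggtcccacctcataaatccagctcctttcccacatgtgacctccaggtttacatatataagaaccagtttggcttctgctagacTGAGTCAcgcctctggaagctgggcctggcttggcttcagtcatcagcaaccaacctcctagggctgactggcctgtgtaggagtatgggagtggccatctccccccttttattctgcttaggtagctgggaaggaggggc
Il1a, chr2:129309973-129310222, minus strand: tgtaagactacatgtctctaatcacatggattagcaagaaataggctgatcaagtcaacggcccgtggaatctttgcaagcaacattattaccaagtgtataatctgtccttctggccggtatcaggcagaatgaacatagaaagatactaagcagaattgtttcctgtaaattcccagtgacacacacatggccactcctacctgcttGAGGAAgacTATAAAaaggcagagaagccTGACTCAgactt
Il1r2, chr1:40085843-40086092, plus strand: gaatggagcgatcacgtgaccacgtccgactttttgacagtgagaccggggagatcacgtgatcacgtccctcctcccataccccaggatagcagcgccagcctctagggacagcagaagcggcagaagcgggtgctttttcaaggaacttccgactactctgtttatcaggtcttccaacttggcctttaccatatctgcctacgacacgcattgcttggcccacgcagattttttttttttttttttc

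The *Il1b* window held a TATA box 31 bases before the start and the *Il1a* window had one at 32 bases, beside a PU.1 core at 41 and an AP-1 match at 12 bases. In the *Il1rn* window shown, 1 of 3 for that gene, the only match was to AP-1, at 141 bases, and the *Il1r2* window held none of these nor an NF-κB match. Of all 32851 promoter windows of this length, 12.4% held TATAAA, 6.75% the AP-1 letters, 23.3% the PU.1 core and 7.25% a match to NF-κB. Among the other genes, *Il18* and *Il33* had TATA matches, *Casp1* and *Nlrp3* held PU.1 cores, and *Il1r1* and *Nlrp3* each held an NF-κB match, at 232 and 186 bases. These are matches of letters and not measured sites.

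The genes lie on 6 chromosomes in GENCODE M21 (GRCm38). *Il1rn* (chr2:24336853-24351494) is on the plus strand of chromosome 2, whereas *Il1a* (chr2:129299610-129309972) and *Il1b* (chr2:129364570-129371139) are on its minus strand. The receptors *Il1r2* (chr1:40074079-40125231) and *Il1r1* (chr1:40225080-40317257) are neighbours on chromosome 1. The others are *Il1rap* (chr16:26581704-26730117), *Il18* (chr9:50554827-50581840), *Casp1* (chr9:5298517-5307265), *Il33* (chr19:29925114-29960718) and *Nlrp3* (chr11:59541568-59566956). The sources used here do not give the strand setting of the counting. Reads of *Il1a*, *Il1b*, *Il1r2*, *Il1rap* and *Il18* may therefore not be told apart from those of genes on the opposite strand, the antisense *Il1bos* at *Il1b* among them, and *Il1r1* and *Il1r2* each overlap a further gene on the same strand.

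Total counts per liver were 18440676 to 21473005 in DIO, 19231679 to 26131278 in GB-IL and 18223135 to 28656631 in RYGB. The levels below are CPM, a gene's count as a part of the library total per 1000000 counts, with the total scaled by edgeR's TMM factor. GB-IL livers 1 and 2 stood apart from the rest. On a principal component analysis whose first axis carried 49.99% of the variance they were at 117 and 92.9 and GB-IL 3 at 17.6, whereas GB-IL 4 was at -31.2, inside the DIO range of -39.6 to -18.6. Hepatocyte markers were high in all livers, at a summed 93864 to 123315 CPM in GB-IL, 123343 to 152772 CPM in DIO and 118669 to 137484 CPM in RYGB. Every GB-IL liver was thus below every DIO liver, GB-IL 4 only narrowly (exact two-sided permutation p = 0.0159, adjusted 0.111). Of the 8 hepatocyte markers, 3 had a higher mean in GB-IL than in DIO. In GB-IL 1, skeletal muscle markers summed to 1129 CPM and pancreas acinar markers to 1360 CPM, against at most 3.05 and 38.7 in every other liver. Squamous epithelium markers summed to 440 CPM in GB-IL 1 and 35.3 CPM in GB-IL 2, against at most 0.847 elsewhere. Below, the values of the called genes and of *Il1r1* and *Il1rap* are also given without these livers.

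Per kilobase of annotated exon, the accessory protein gene *Il1rap* was the highest of the 10 in DIO livers, at 14.4 ± 1.08 CPM per kb (SD, n = 5). *Il18* followed at 9.69 ± 1.98, just outside the *Il1rap* range, and *Il1r1* at 8.13 ± 3.40 CPM per kb overlapped both. Then came *Casp1* at 2.25, *Il1a* at 1.40, *Il1b* at 1.09, *Il1rn* at 1.01, *Il33* at 0.568 and *Nlrp3* at 0.334 CPM per kb, where from *Il1a* downwards each gene's range overlapped that of its neighbour. The decoy *Il1r2* was the lowest, at 0.0707 ± 0.0557 CPM per kb, below the range of all 9 others. In obese liver the receptor chains were thus more abundant per length than *Il1a* or *Il1b*. In GB-IL livers *Il1r1* was first at 15.6 ± 11.3 CPM per kb (n = 4), *Il18* next at 10.3 ± 4.67, then *Il1rap* at 6.48 ± 6.01 and *Il1b* at 6.39 ± 3.65, with wide overlap among them. The RYGB order again had *Il1rap* first at 10.6 ± 3.21 and *Il1r2* last at 0.122 ± 0.177 CPM per kb (n = 5).

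The comparison of GB-IL with DIO asks how these genes differed between livers after bile diversion to the ileum and livers without surgery. *Il1b*, its antagonist *Il1rn* and the decoy receptor *Il1r2* rose, while *Il1a*, the other ligand of the same receptor, did not pass the test and neither did *Il18*, *Nlrp3* or *Casp1*. Of the 10 genes, 3 were called higher and 0 lower at an FDR of 0.05 (edgeR's quasi-likelihood test, Benjamini-Hochberg over 14252 genes), beside 3.15% of all genes called higher and 0.112% called lower. At an unadjusted p below 0.05 there were 4, beside 23.1% of all genes. The median log2 fold change of the 10 was 0.76, against 0.04 for all genes tested. All 10 passed the filter on low counts, but *Il1r2* did so without any DIO liver over the minimum of 0.492 CPM, through 3 GB-IL livers and 1 RYGB liver, so it had to differ between livers, and its call adds no support to the count.

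*Il1b* was at 1.46, 2.85, 2.85, 1.58 and 1.68 CPM in DIO livers 1 to 5. The GB-IL livers 1 to 4 had 13.8, 19.9, 12.0 and 3.06 CPM. Every GB-IL liver was above every DIO liver, GB-IL 4 only narrowly, and *Il1b* was the 1 gene of the 10 whose groups did not overlap, and 2.64% of all genes tested were likewise higher without overlap. The means were 12.2 ± 6.97 CPM in GB-IL (SD, n = 4) and 2.09 ± 0.702 CPM in DIO (n = 5). The log2 fold change was 2.54 ± 0.45 (SE), a fold of 5.83, with an adjusted p of 0.0278. Leaving out GB-IL 4 gave 2.86 (adjusted p = 0.000388). The call was lost without GB-IL 1 (2.47, adjusted p = 0.0599) or GB-IL 2 (2.19, adjusted p = 0.0581) and without any 1 DIO liver, where the log2 fold change was 2.44 to 2.68 and the adjusted p 0.0618 to 0.0942 (without DIO 1, 2, 3, 4 and 5: 0.072, 0.0716, 0.0618, 0.083 and 0.0942). In each of these 7 fits 0 genes of the whole table were called, so the loss was not particular to *Il1b*.

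The antagonist gene had a like pattern over the livers. *Il1rn* was at 3.77, 6.93, 9.97, 3.79 and 3.56 CPM in the DIO livers and at 28.02, 38.0, 29.5 and 6.34 CPM in GB-IL 1 to 4. GB-IL 1 to 3 lay above every DIO liver and GB-IL 4 lay within the DIO range. *Il1rn* rose by a log2 fold change of 2.18 ± 0.48 (adjusted p = 0.0314), to 2.50 without GB-IL 4 (adjusted p = 0.00115), and lost its call without the same 7 livers (adjusted p 0.0618 to 0.0959). In counts, *Il1rn* to *Il1b* stood at 2.03, 1.91, 2.46 and 2.07 in GB-IL 1 to 4, against 2.11 to 3.50 in DIO and 0.931 to 3.98 in RYGB. The ratio was thus within or just under the DIO range while both transcripts were higher.

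The ratio of the ligands was higher in every GB-IL liver than in every DIO liver, in GB-IL 4 only narrowly. *Il1a* was at 2.51, 3.29, 2.59, 3.05 and 2.40 CPM in DIO and at 4.69, 2.26, 5.38 and 2.73 CPM in GB-IL, which overlapped, with GB-IL 1 and 3 above the DIO livers and GB-IL 2 below them. The log2 fold change of *Il1a* was 0.45 ± 0.35 (adjusted p = 0.424). *Il1b* counts per *Il1a* count were 2.94, 8.83, 2.23 and 1.12 in GB-IL 1 to 4, each above the DIO range of 0.519 to 1.10, and 0.343 to 0.766 in RYGB.

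*Il1r2*, the decoy, had 3, 0, 1, 4 and 5 reads in the DIO livers, and 333, 86, 32 and 2 reads in GB-IL 1 to 4. On the CPM scale these GB-IL livers had 17.3, 4.85, 1.36 and 0.0737 CPM, a wide spread in which GB-IL 4 was within the DIO range of 0 to 0.240 CPM. The log2 fold change was 5.41 ± 1.23 (adjusted p = 0.0333). Without GB-IL 1 it was 3.89 (adjusted p = 0.115), without GB-IL 2 it was 5.49 (adjusted p = 0.0633), and without any 1 DIO liver it was 5.11 to 5.74 with an adjusted p of 0.0773 to 0.0959. With voom it was 2.59 (adjusted p = 0.155). With both GB-IL 1 and 2 left out, *Il1r2* was at 2.32 (adjusted p = 0.625), *Il1b* at 1.82 (adjusted p = 0.142) and *Il1rn* at 1.65 (adjusted p = 0.262). All 3 kept their direction there, with 2 GB-IL livers left, and none was called. Of these livers, GB-IL 4 was within the DIO range for *Il1rn* and *Il1r2*, so their direction rested mainly on GB-IL 3.

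**Figure D1:**
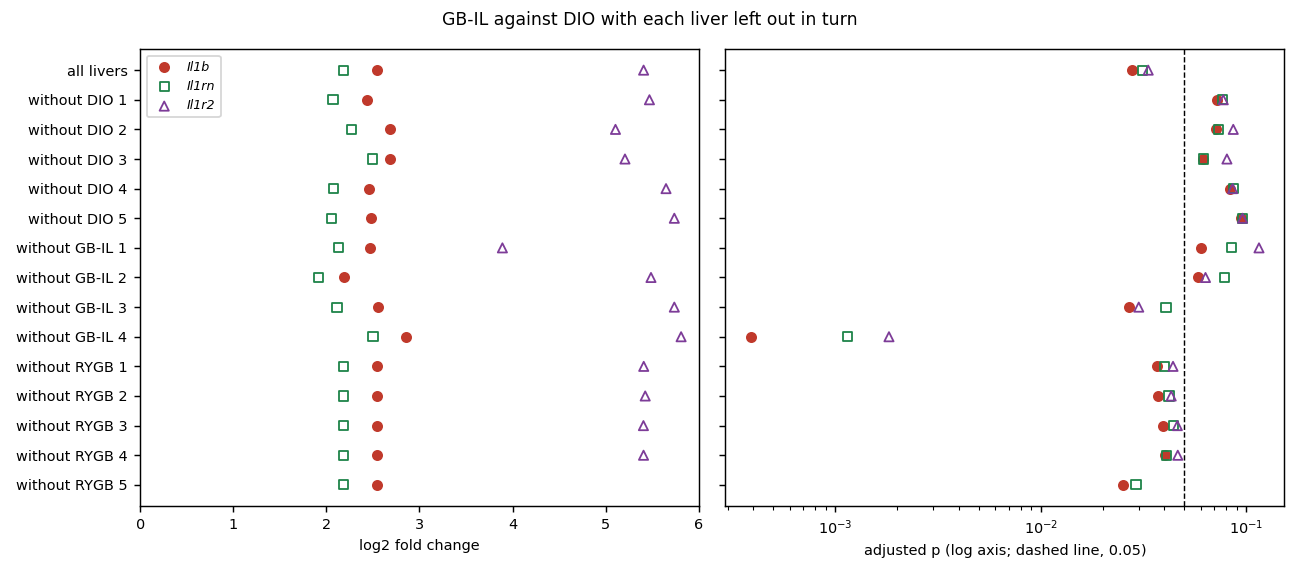
GB-IL against DIO for *Il1b*, *Il1rn* and *Il1r2* with each of the 14 livers left out in turn: log2 fold change on the left axis, adjusted p on a log axis on the right with 0.05 dashed. The adjusted p lies over 0.05 without any DIO liver and without GB-IL 1 or 2, and falls to 0.000388 for *Il1b* without GB-IL 4; *Il1r2* was not tested without RYGB 5.

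The genes of the signalling receptor chains varied widely among the GB-IL livers, and neither passed the test. *Il1r1* was at 43.1, 47.4, 25.8, 58.0 and 84.4 CPM in DIO and at 188, 40.3, 128 and 40.9 CPM in GB-IL. GB-IL 1 and 3 lay above the DIO livers, whereas GB-IL 2 and 4 lay within them, and the log2 fold change was 0.94 ± 0.46 (adjusted p = 0.234). It was 0.41 without GB-IL 1 (adjusted p = 0.668), 1.19 without GB-IL 2 (adjusted p = 0.218) and 0.68 without both (adjusted p = 0.848). *Il1rap* was at 172, 172, 143, 161 and 169 CPM in DIO, with the smallest relative spread of the 10 genes (SD 7.53% of the mean), and at 18.0, 14.1, 112 and 150 CPM in GB-IL. GB-IL 1 and 2 thus had about 0.110 and 0.0863 of the DIO mean, and GB-IL 4 was within the DIO range. Its log2 fold change of -1.15 ± 0.55 did not pass the test (adjusted p = 0.223), but without GB-IL 4 it was -1.76 (adjusted p = 0.0339). With GB-IL 1 and 2 left out it was -0.33 (adjusted p = 0.894). The summed hepatocyte markers were at 99452, 119625, 93864 and 123315 CPM in GB-IL 1 to 4, against 123343 to 152772 CPM in DIO. They were thus lower too, but in another order of livers than *Il1rap*. Of the 8 markers, 3 had a higher mean in GB-IL than in DIO. The part of hepatocytes in the *Il1rap* values was not tested. *Il1r1* counts per *Il1rap* count were 10.4, 2.86, 1.14 and 0.272 in GB-IL 1 to 4, against 0.181 to 0.498 in DIO.

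Leaving out GB-IL 4 brought the number of the 10 genes called to 4, with *Il1rap* lower beside the 3 higher. The share of all genes called was then 15.4% higher and 9.27% lower.

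None of the cytokine genes *Il18* and *Il33* or the inflammasome genes passed the test. *Il33* was at 2.35, 2.26, 1.83, 0.792 and 0.961 CPM in DIO and at 3.70, 2.31, 3.77 and 3.61 CPM in GB-IL, where livers 1, 3 and 4 lay above the DIO livers and GB-IL 2 did not. Its log2 fold change of 1.03 ± 0.37 had an unadjusted p of 0.0132 and an adjusted p of 0.123. GB-IL 4, which lay near DIO for the 3 called genes, was at the level of GB-IL 1 and 3 for *Il33*. *Il18* was at 7.88 to 12.7 CPM in DIO and at 6.35, 7.33, 16.9 and 11.9 CPM in GB-IL (0.09 ± 0.29, adjusted p = 0.861), on both sides of the DIO range.

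*Nlrp3*, the sensor, was at 1.02 to 2.02 CPM in DIO and at 2.03, 1.35, 2.92 and 1.33 CPM in GB-IL (log2 fold change 0.50 ± 0.31, adjusted p = 0.329). *Casp1*, the protease, was at 2.64 to 4.29 CPM in DIO and at 4.06, 3.44, 7.75 and 4.61 CPM in GB-IL (0.57 ± 0.27, adjusted p = 0.230). GB-IL 3 had the highest level of *Il18*, *Nlrp3* and *Casp1* of all 14 livers. In that liver 9 of the 10 genes were above every DIO liver, beside 25.5% of all genes tested, and *Il1rap* was below. In GB-IL 1, 7 were above and 2 below (35.6% and 38.1% of all genes), in GB-IL 2, 3 and 3 (35.4% and 35.9%), and in GB-IL 4, 3 and 0 (15.5% and 14.4%).

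**Figure D2:**
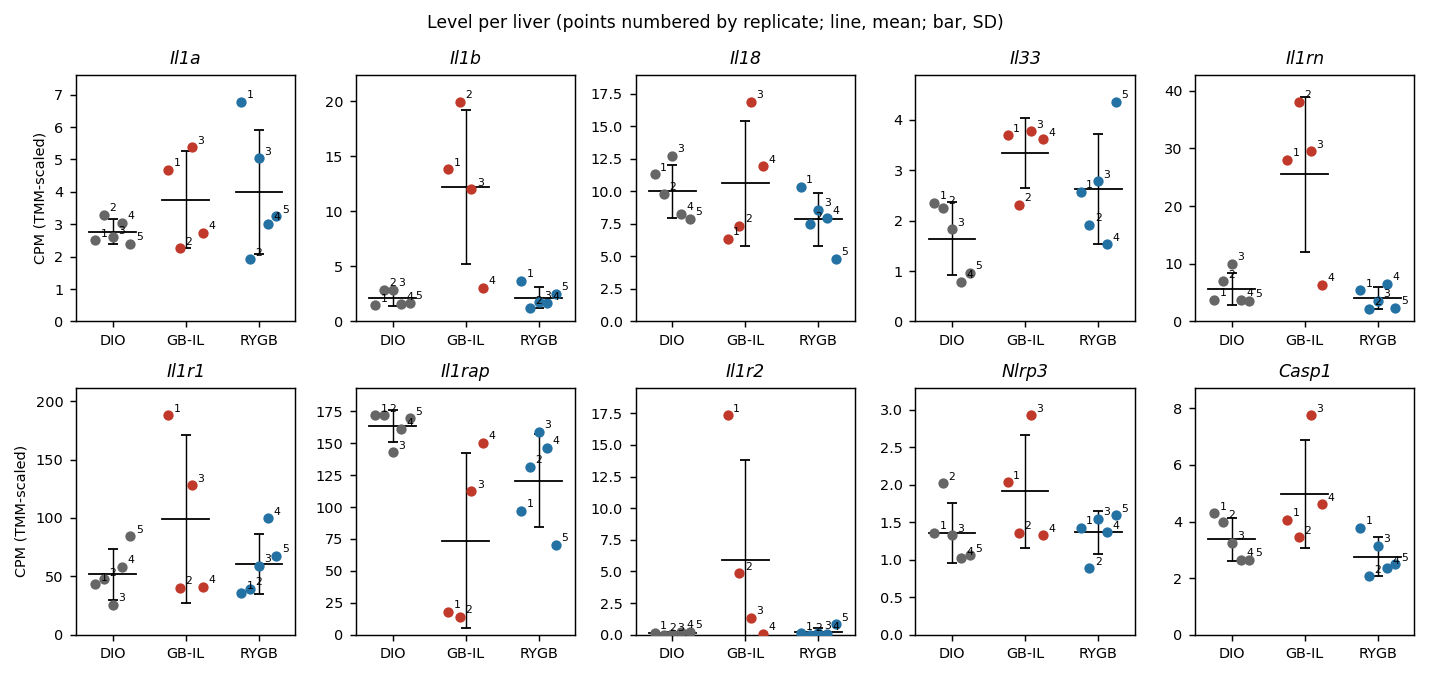
CPM (TMM-scaled) of the 10 genes in each liver by group, on linear axes from 0, with points numbered by replicate, lines at the mean and bars of 1 SD. *Il1b*, *Il1rn* and *Il1r2* are high in GB-IL 1 to 3 and near the DIO level in GB-IL 4, *Il1rap* is at 18.0 and 14.1 CPM in GB-IL 1 and 2, and the RYGB and DIO livers overlap for all 10 genes.

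The comparison of RYGB with DIO asks the same of gastric bypass. None of the 10 genes passed the test. Their median was a log2 fold change of 0.02, against 0.01 for all genes. The test called 0 of 10, beside 0% of all genes, and 0 had an unadjusted p below 0.05, beside 8.71% of all genes. DESeq2 and edgeR's exact test also called 0 of the 10, while calling 0.684% and 0.309% of all genes. Voom with quality weights per liver called 0 of the 10 as well, beside 11.9% of all genes.

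In RYGB 1 to 5 *Il1b* was at 3.66, 1.23, 1.72, 1.65 and 2.49 CPM, around the DIO livers (log2 fold change 0.04 ± 0.43, adjusted p = 0.985). *Il1rn* was at 5.41, 2.17, 3.59, 6.57 and 2.32 CPM (-0.48 ± 0.46, adjusted p = 0.795). *Il1a* was at 6.78, 1.92, 5.03, 3.02 and 3.25 CPM (0.53 ± 0.33, adjusted p = 0.677). RYGB 1 thus had the highest *Il1a* of all 14 livers, and RYGB 1 and 3 lay above the DIO livers.

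*Il33* was at 2.57, 1.92, 2.78, 1.53 and 4.36 CPM, with 3 of 5 RYGB livers above every DIO liver (0.68 ± 0.35, adjusted p = 0.605). *Il1rap* was at 97.0, 131, 159, 146 and 70.4 CPM, with 3 of 5 below every DIO liver (-0.44 ± 0.50, adjusted p = 0.843), and *Il1r1* was at 36.1 to 99.6 CPM (0.22 ± 0.44, adjusted p = 0.916). *Casp1*, at 2.07 to 3.77 CPM, was below every DIO liver in 3 of 5 (-0.29 ± 0.26, adjusted p = 0.789). *Il18* was at 4.81 to 10.3 CPM (-0.35 ± 0.27, adjusted p = 0.744) and *Nlrp3* at 0.887 to 1.59 CPM (0.01 ± 0.29, adjusted p = 0.994).

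The decoy *Il1r2* had 2, 0, 4, 2 and 24 reads in RYGB 1 to 5, and the 0.830 CPM of RYGB 5 was above every DIO liver. At the few reads of the other RYGB and the DIO livers a difference was not detectable (0.86 ± 1.30, adjusted p = 0.884). RYGB 5 also had the lowest *Il18* of all 14 livers and the highest *Il33*. In RYGB 2, 7 of the 10 genes were below every DIO liver and 0 above, beside 17.8% and 18.1% of all genes.

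The direct comparison of GB-IL with RYGB had the same direction as that with DIO for the 3 genes, but none passed the main test. The quasi-likelihood test called 0 of 10, beside 0% of all genes, while 4 had an unadjusted p below 0.05, beside 22.1% of all genes. *Il1b* was 2.50 ± 0.45 higher in GB-IL on the log2 scale (adjusted p = 0.0552), *Il1rn* 2.67 ± 0.49 (adjusted p = 0.0552), *Il1r2* 4.55 ± 1.12 (adjusted p = 0.0839) and *Casp1* 0.85 ± 0.27 (adjusted p = 0.122). GB-IL livers 1 to 3 lay above every RYGB liver for *Il1b*, *Il1rn* and *Il1r2*. GB-IL 4 lay within the RYGB range for all 3.

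The number called in this comparison depended on the test. DESeq2 called 4 of 10, all higher in GB-IL (*Il1b*, *Il1rn*, *Il1r2* and *Casp1*), beside 4.61% of all genes. The exact test of edgeR called the first 3 of these, beside 3.99%, and voom with quality weights per liver called *Il1b* and *Il1rn*, beside 0.779%. Without GB-IL 4 the quasi-likelihood test called *Il1b* (adjusted p = 0.000886), *Il1rn* (0.00134) and *Il1r2* (0.00543), beside 13.4% of all genes. The comparisons with DIO and with RYGB share the GB-IL livers, so neither is a repeat of the other.

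**Figure D3:**
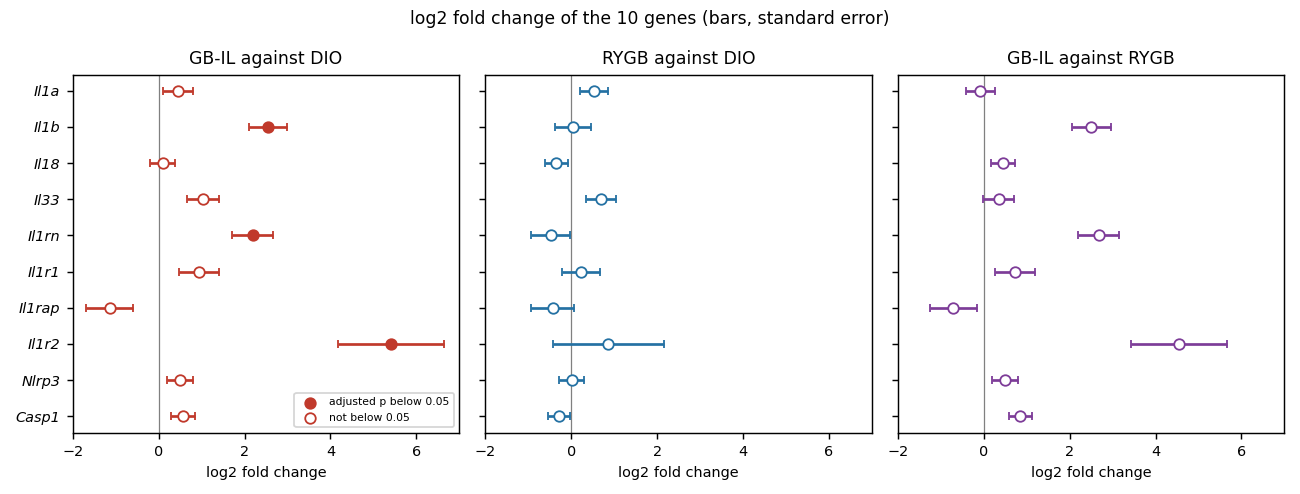
log2 fold change with its standard error for the 10 genes in the 3 comparisons, filled where the adjusted p is below 0.05. Filled points appear for *Il1b*, *Il1rn* and *Il1r2* in GB-IL against DIO alone, and the same 3 genes have the largest differences in GB-IL against RYGB.

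Further genes of the pathway were described from 4 lists. Their counts in GB-IL against DIO stand beside the 3.15% of all genes called higher and the 0.112% called lower. Among other ligands, receptors and binding proteins of the family, 4 of 17 listed genes were tested, and 1 rose. *Il18rap*, the accessory chain of the IL-18 receptor, was at 4.38, 0.903, 2.88 and 0.405 CPM in GB-IL 1 to 4 and at 0.157 to 0.442 CPM in DIO. Its log2 fold change was 2.88 ± 0.60 (adjusted p = 0.0287). Like *Il1r2*, it had no DIO liver over the minimum of 0.492 CPM and passed the filter through 3 GB-IL and 2 RYGB livers, so it had to differ between livers and its call adds no support. *Il18bp*, which encodes the soluble protein that binds IL-18, was at 1.18 ± 0.36 (adjusted p = 0.0837), and *Il18r1* at 1.11 ± 0.64 (adjusted p = 0.299). The list's median was 1.14.

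Receptor signalling, 20 genes tested, had 1 called higher, which is near the share of all genes, 0 lower and a median log2 fold change of -0.05. The 1 gene was *Irak3*, which encodes IRAK-M, a kinase-like inhibitor of signalling in myeloid cells. It was at 12.1, 5.70, 20.2 and 4.09 CPM in GB-IL, all above the DIO range of 1.30 to 3.93 CPM. Of all genes tested, 2.64% were likewise higher without overlap. The log2 fold change of *Irak3* was 2.38 ± 0.50 (adjusted p = 0.0297). The adaptor *Myd88* (0.42 ± 0.18, adjusted p = 0.177), the TAK1 partner *Tab1* (0.96 ± 0.38, adjusted p = 0.159) and the ubiquitin ligase *Peli2* (-0.41 ± 0.15, adjusted p = 0.126) did not pass. For *Peli2* all 4 GB-IL livers were below every DIO liver, beside 1.54% of all genes lower without overlap.

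Among inflammasome partners 22 genes were tested, with 2 higher, 0 lower and a median of 0.46. *Casp4*, the mouse caspase-11 that senses cytosolic lipopolysaccharide, was at 8.91, 8.97, 10.2 and 2.32 CPM in GB-IL and at 1.36 to 2.80 CPM in DIO (1.92 ± 0.35, adjusted p = 0.0278). *Card9*, an adaptor of myeloid cells, was at 3.23, 3.95, 4.11 and 0.995 CPM in GB-IL and at 0.628 to 1.27 CPM in DIO (1.81 ± 0.40, adjusted p = 0.0320). Both had GB-IL 4 within the DIO range. *Pycard*, which encodes the adaptor ASC that joins sensor to caspase-1, was at 1.41 ± 0.41 (adjusted p = 0.0728).

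The last list held 18 genes taken as the IL-1 response of liver, many of which IL-6 or tumour necrosis factor also induce. Of 15 tested, 9 rose in GB-IL against DIO and 0 fell, with a median log2 fold change of 1.85: *Saa1*, *Saa2*, *Saa3*, *Lcn2*, *Nfkbiz*, *Tnfaip3*, *Icam1*, *Orm2* and *Hp*. *Lcn2*, encoding lipocalin 2, was at 3155, 4460, 3297 and 16.6 CPM in GB-IL 1 to 4 and at 9.19 to 57.9 CPM in DIO (6.30 ± 1.23, adjusted p = 0.0278). *Saa3* was at 101, 137, 220 and 4.83 CPM against 5.06 to 9.66 CPM in DIO (3.89 ± 0.66, adjusted p = 0.0278). GB-IL 4 was within or under the DIO range for both. *Saa2* was at 6.12 ± 1.19 (adjusted p = 0.0278) and *Saa1* at 4.96 ± 1.05 (adjusted p = 0.0297), but these are near-identical copies whose reads the counting may have split between them, as may hold for *Orm2* and its paralogs. *Orm2* was at 5.83 ± 1.15 (adjusted p = 0.0278), the haemoglobin-binding *Hp* at 2.19 ± 0.53 (adjusted p = 0.0375), the adhesion receptor gene *Icam1* at 1.92 ± 0.42 (adjusted p = 0.0316) and the IκB family gene *Nfkbiz* at 1.60 ± 0.40 (adjusted p = 0.0437). *Tnfaip3*, the A20 feedback inhibitor, lay above every DIO liver in 4 of 4 (1.85 ± 0.44, adjusted p = 0.0365), beside 2.64% of all genes higher without overlap.

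All the calls in these 4 lists were lost without GB-IL 1, without GB-IL 2 or without any 1 DIO liver, as were those of the whole table. With both GB-IL 1 and 2 left out, 0 of these 13 genes were called (adjusted p 0.103 to 0.435), and all 13 were still higher, by log2 fold changes of 0.73 for *Nfkbiz* to 6.82 for *Saa2*. Only GB-IL 3 and 4 were then left. GB-IL 4 was above every DIO liver for *Irak3* and *Tnfaip3*, but within or under the DIO range for *Lcn2*, *Saa3*, *Casp4*, *Card9* and *Il18rap*. For these last genes the direction rested mainly on GB-IL 3.

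For RYGB against DIO 0 genes of the 4 lists were called by the quasi-likelihood test or the exact test. DESeq2 called *Mapk14*, and voom called 7 genes (*Irak2*, *Mapk14*, *Naip6*, *Txnip*, *Saa4*, *Nfkbiz* and *Ccl2*), beside the 0.684% and 11.9% of all genes given above. In the quasi-likelihood test the smallest unadjusted p-values were 0.00172 for the kinase gene *Mapk14* (-0.65 ± 0.17, adjusted p = 0.348), 0.00772 for the chemokine *Ccl2* (1.51 ± 0.49, adjusted p = 0.445) and 0.0218 for *Nfkbiz* (0.98 ± 0.38, adjusted p = 0.515). *Txnip*, which encodes a thioredoxin-binding partner of NLRP3, was at -0.86 ± 0.39 (adjusted p = 0.569), *Naip6* at 0.78 ± 0.37 (adjusted p = 0.573) and *Lcn2* at 2.19 ± 1.01 (adjusted p = 0.571). In GB-IL against RYGB the quasi-likelihood test called 0 genes of the lists. Other tests called *Il18rap* and *Irak3*. DESeq2 also called 4 inflammasome partners and 10 response genes, the exact test 2 and 9, and voom 1 and 3. These stood beside 4.61%, 3.99% and 0.779% of all genes called higher. Without a filter on low counts 3 response genes were called, beside 0.199% of all genes called higher. All of these list genes were higher in GB-IL. In the quasi-likelihood test *Casp4* was at 1.75 ± 0.35 (adjusted p = 0.0645), *Il18rap* at 2.46 ± 0.57 (adjusted p = 0.0807), *Irak3* at 1.97 ± 0.49 (adjusted p = 0.0839) and *Card9* at 1.36 ± 0.39 (adjusted p = 0.105), with *Saa3* (4.65 ± 0.69), *Saa2* (7.43 ± 1.27) and *Saa1* (5.77 ± 1.09) at an adjusted p of 0.0552 each.

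**Figure D4:**
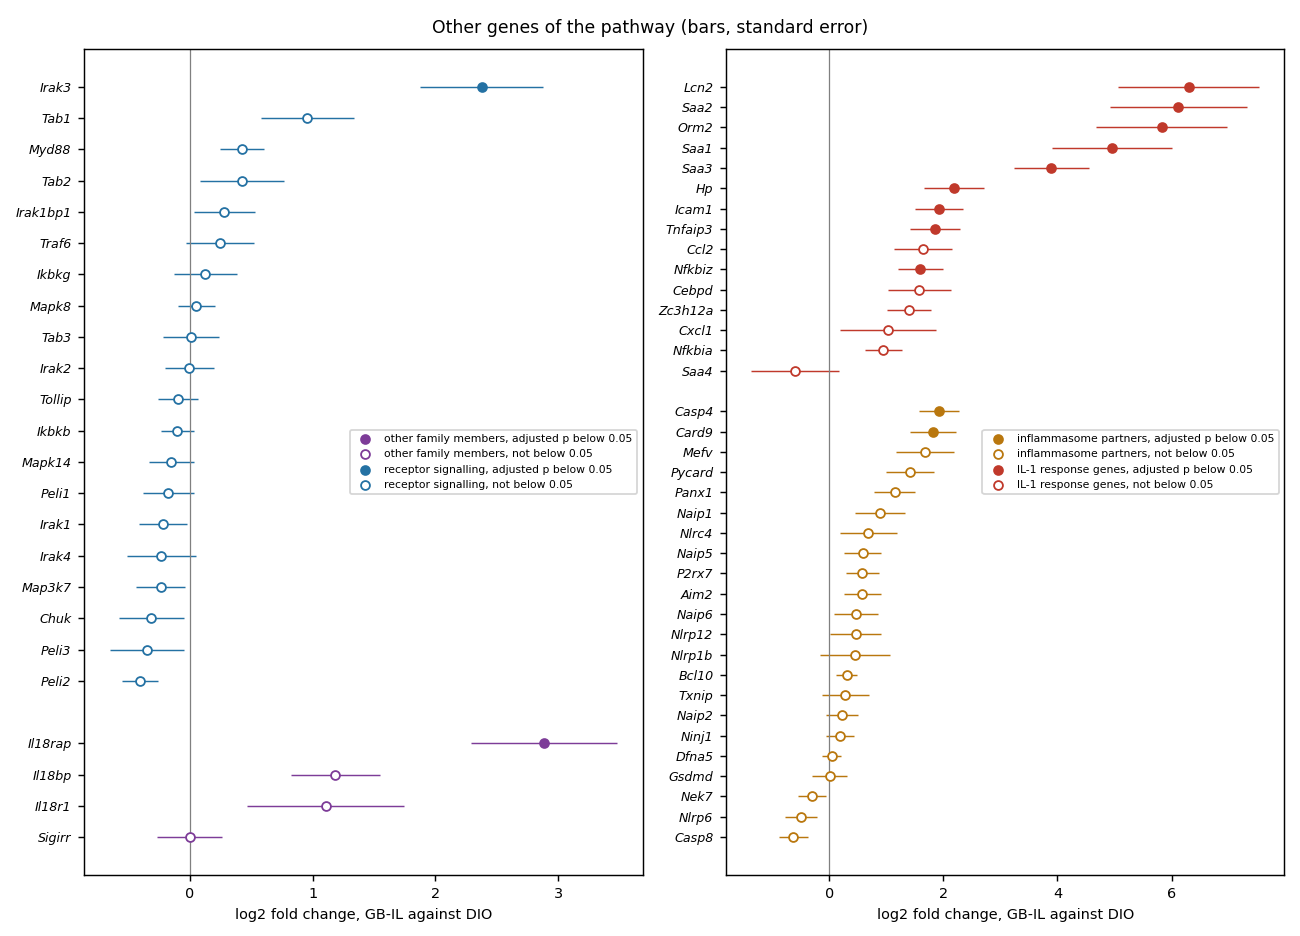
log2 fold change, GB-IL against DIO, with its standard error, for the tested genes of the 4 further lists, filled where the adjusted p is below 0.05. Filled points are *Il18rap*, *Irak3*, *Casp4*, *Card9* and 9 IL-1 response genes, all to the right of 0.

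Markers of monocytes and macrophages and of neutrophils were above the DIO range in GB-IL 1 to 3, where the 3 called genes were high. Over GB-IL 1 to 4 their order was not that of *Il1r2*, at 17.3, 4.85, 1.36 and 0.0737 CPM. Markers of squamous epithelium, skeletal muscle and cholangiocytes each fell in the same order as *Il1r2*. They summed to 440, 35.3, 0.847 and 0.258 CPM for squamous epithelium and to 1129, 3.05, 0.890 and 0.700 CPM for skeletal muscle. For cholangiocytes the sums were 318, 259, 218 and 58.0 CPM. The part of any of these cell types in the *Il1r2* values was not tested. Monocyte and macrophage markers, with 9 of 10 listed genes in the table, summed to 389, 587, 850 and 243 CPM in GB-IL 1 to 4, to 123 to 214 CPM in DIO and to 140 to 298 CPM in RYGB. All GB-IL livers were above all DIO livers (exact two-sided permutation p = 0.00794, the smallest these group sizes allow, adjusted over 42 tests 0.111), and all 9 genes had a higher mean. Neutrophil markers, 12 of 12 in the table, summed to 122, 57.4, 495 and 6.82 CPM in GB-IL, to 5.91 to 10.6 CPM in DIO and to 144 CPM in RYGB 5, against 7.79 to 13.3 CPM in the other RYGB livers. The defining neutrophil gene *Ly6g* was at 0 in every DIO liver and at most at 0.636 CPM, in GB-IL 3, whereas *S100a8* reached 86.7 CPM there.

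GB-IL 4, RYGB 1 and RYGB 5 set these levels side by side with those of the IL-1 genes. In GB-IL 4, *Il1b* at 3.06 CPM and markers of monocytes and macrophages were above the DIO range. *Il1rn*, *Il1r2* and neutrophil markers were within it. In RYGB 1, neutrophil markers at 13.3 CPM, those of monocytes and macrophages at 298 CPM and *Il1b* at 3.66 CPM were above every DIO liver. *Il1rn* at 5.41 CPM and *Il1r2* at 0.109 CPM were within the DIO range there. In RYGB 5, neutrophil markers were at 144 CPM and those of monocytes and macrophages at 227 CPM, both above every DIO liver. *Il1r2* was at 0.830 CPM there, and *Il1b* and *Il1rn* were within the DIO range at 2.49 CPM and under it at 2.32 CPM, respectively. Kupffer cell markers summed to 343, 629, 1752 and 819 CPM in GB-IL and to 453 to 688 CPM in DIO. Cholangiocyte markers summed to 318, 259, 218 and 58.0 CPM in GB-IL and to 30.5 to 65.8 CPM in DIO (exact permutation p = 0.0159, adjusted 0.111). None of the 42 marker tests passed an adjusted p of 0.05. In bulk liver, more cells of a type and more RNA per cell cannot be told apart, and the part of cell composition in the IL-1 results was not tested.

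**Figure D5:**
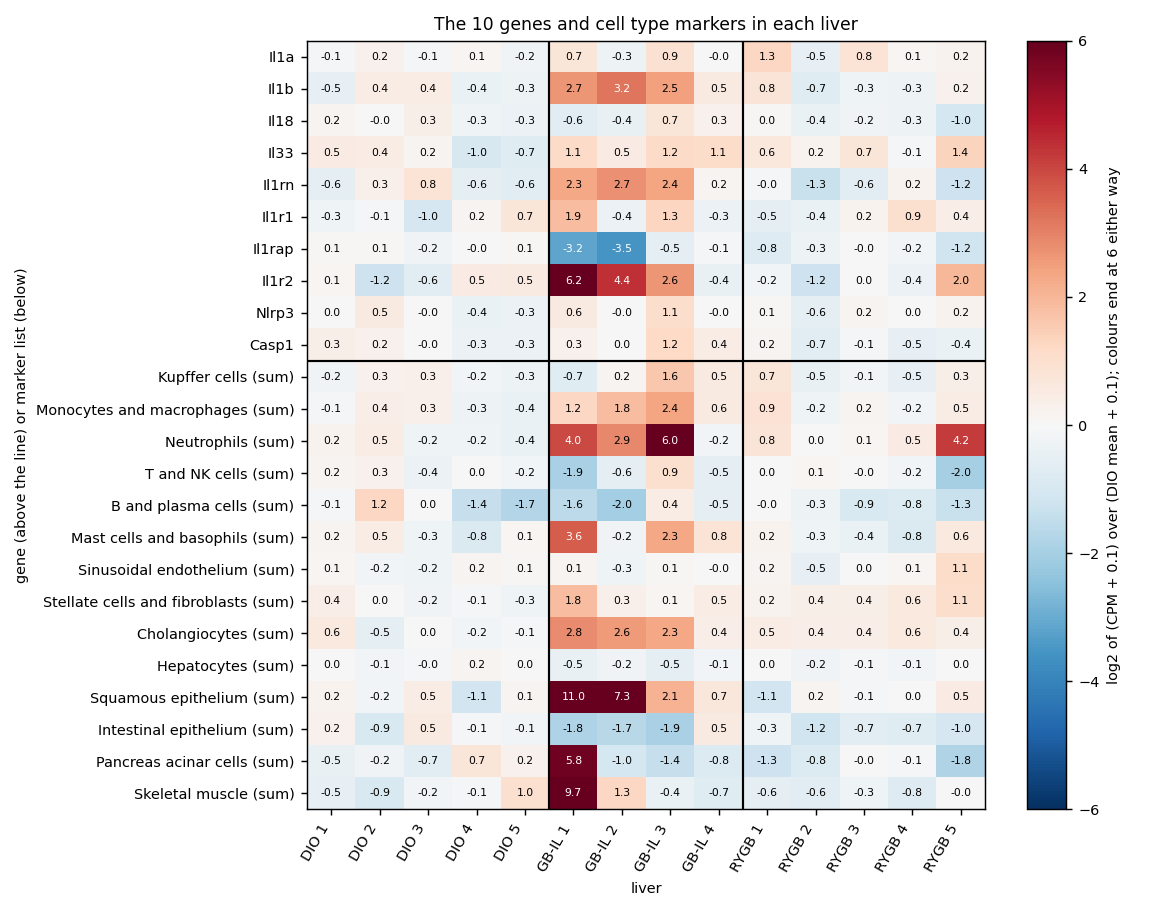
log2 of each liver's CPM over the DIO mean, with 0.1 CPM added to both, for the 10 genes and for the summed markers of 14 cell types and tissues (rows) in the 14 livers (columns). *Il1b*, *Il1rn* and *Il1r2* are red in GB-IL 1 to 3 as are neutrophil, macrophage and cholangiocyte markers, *Il1rap* is blue in GB-IL 1 and 2, and squamous epithelium markers are at the end of the colour scale in GB-IL 1 and 2.

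Genes with the most similar order of livers were sought among 12692 tested genes with a mean of at least 1 CPM, by the mean absolute difference of ranks over the 14 livers. For *Il1b* they were *Slc2a6*, *Milr1* and *C3ar1*, at a mean difference of 1.14 ranks, and *Atp6v1b2* and *Hcls1*, at 1.29 ranks, where the median gene was at 4.57. *C3ar1*, the receptor gene of complement C3a, had means of 4.04 CPM in DIO, 9.47 CPM in GB-IL and 4.74 CPM in RYGB, and *Slc2a6* had 0.531, 2.82 and 0.694 CPM. For *Il1rn* they were *Trafd1* at 1.29, *Tmem60* at 1.43, *Ipo5* at 1.57, and *Slc25a48* and *Cnppd1* at 1.71 ranks. The 2 sets of 5 shared no gene, and the means of *Trafd1* were 54.4 CPM in DIO, 72.0 CPM in GB-IL and 50.5 CPM in RYGB. All livers enter these ranks, so the likeness rests in part on the same GB-IL livers as the calls.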

How the data were processed

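Liver RNA was amplified by the authors and sequenced on the Illumina HiSeq, aligned to mm10 with TopHat 2 and counted per gene with HTSeq. The authors deposited whole counts per gene without normalization. The sources used here do not give tool versions, annotation or strand setting. A pair of stranded library kits is named in the labels, with no liver assigned to either, so kit and group cannot be told apart.

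Counts were analysed with edgeR 4.0.16 in R 4.3.3. Genes were kept by filterByExpr by group (14252 of 25212), scaled by TMM, and fitted together for the 14 livers by the quasi-likelihood model (p-values adjusted after Benjamini-Hochberg, FDR 0.05). The SE was the log2 fold change over the square root of F. Summed markers were compared by exact permutation tests. DESeq2 1.42.0, limma 3.58.1, other scalings, filters and left-out livers were alternatives. The fit was checked on simulated data. Exon lengths came from GENCODE M21 and promoters from RefSeq.

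All 10 member genes are named. Of the other pathway lists, genes past the FDR and those with the smallest p are named and for likeness the 5 nearest genes. The members and lists were chosen with earlier results of these data known.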

Additional observations from a re-analysis of the deposited data

Results flagged for a closer look

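In RYGB liver 5 the decoy receptor gene *Il1r2* was at 0.830 CPM, far from the other 4 RYGB livers, the nearest at 0.141 CPM. The gap was 0.830 of the group's whole range. Neutrophil markers summed to 144 CPM in this liver, and their part in the value was not tested.

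*Il33* was at 2.31 CPM in GB-IL liver 2, with the nearest of the other 3 GB-IL livers at 3.61 CPM, a gap of 0.892 of the range. These were 2 of 30 checks of a gene in a group for a liver far from the others. So many checks can give some by chance, at a rate that was not tested.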

How the results depend on the processing

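In GB-IL against DIO, 3 genes were called with RLE or upper quartile scaling, DESeq2, edgeR's exact test, robust estimation or no filter, beside 3.31%, 3.75%, 9.11%, 7.92%, 3.26% and 2.12% of all genes called in either direction. Voom called 3 (*Il1b*, *Il1rn* and *Il33*), beside 4.13%, and a minimum mean of 50 counts gave 2, with *Il1r2* not tested, beside 3.35%. The count was 0 with the 2 compared groups only, 0 with the replicate block and 0 with GB-IL livers 1 and 2 left out together, an alternative chosen after seeing the data. With 1 liver left out it was 0 to 4. In the whole table, the fits with a count of 0 called 0 genes, or 1 with the block, and the other fits with 1 liver left out called 294 to 3572, the most without GB-IL 4. The replicate numbers did not pair the livers: of 13 same-number pairs, 2 correlated over 0.1 (range -0.412 to 0.398). With the block the log2 fold change of *Il1b* was 2.38 (adjusted p = 0.0679) and of *Il1rn* 2.01 (adjusted p = 0.101).

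In GB-IL against RYGB the count of 0 became 4 with DESeq2, 3 with the exact test, 2 with voom and 2 without a filter. Of all genes, 5.96%, 4.78%, 0.807% and 0.207% were called there in either direction. With 1 liver left out the count was 0 to 3, the 3 being without GB-IL 4, where 21.5% of all genes were called. In RYGB against DIO it was 0 in every fit, also with voom, which called 11.9% of all genes.

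Values that changed sign were of genes not called. In GB-IL against DIO, *Il18* was at -0.0729 with the block and -0.22 to 0.26 with 1 liver left out. In RYGB against DIO, *Il1b* was at -0.0494 and *Il1r2* at -0.86 with voom, and leaving out 1 liver gave -0.23 to 0.18 for *Il1b*, -0.033 to 0.47 for *Il1r1* and -0.0748 to 0.20 for *Nlrp3*. In GB-IL against RYGB, *Il1a* was at 0.26 with voom and -0.30 to 0.19 with 1 liver left out, and *Il1rap* at 0.10 without GB-IL 1 and 2. The cause was not tested.

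No gene of the 10 was too low for the model, so the planned ratio of summed counts was not run. Few reads limit *Il1r2*, with 0 to 5 in each DIO liver.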
